A study of Drosophila melanogaster with 6 samples.

Results

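Oxidative phosphorylation genes of the nucleus were compared between libraries labelled KO and wild-type (WT) libraries of Kc cells, a Drosophila melanogaster line of embryonic, plasmatocyte-like origin. Members were taken by symbol: every gene whose name begins with ND- (complex I), Sdh followed by A to D (complex II), UQCR- (complex III), COX and a digit (complex IV) or ATPsyn (complex V). This gave 80 of the 17714 genes listed, among them 18 copies whose symbol is that of a subunit with an L added (such as ND-20L and COX7AL). The expressed members lay high in the transcriptome, and those whose RNA differed between the groups did so in both directions and mostly by less than 1.5-fold. Their direction went with the chromosome neighbourhood of each gene, and it was mixed within complexes I and V. In complex IV the only member that fell was a low L-named copy, COX4L.

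The series concerns CG14906, named Mettl4 in the annotation, and methylation of adenosine in the U2 snRNA of the spliceosome. Poly(A) RNA was sequenced from 3 KO and 3 WT libraries. In the labels the genotype of the KO libraries is ko, of CG14906 as the series text gives it, while their titles begin with OE, and the WT libraries are wild type in both. The labels name no clone, guide or batch, and nothing states separate cultures, so the p-values below reflect how far these libraries scatter, and that scatter may be technical.

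The electron transport chain passes electrons from NADH (complex I) and succinate (complex II) through complex III to oxygen at complex IV, and pumps protons across the inner mitochondrial membrane. Complex V, the ATP synthase, uses the returning protons to make ATP. Most subunits are encoded in the nucleus and the remainder in the mitochondrial genome. In Drosophila many nuclear subunits also have a further copy, often expressed mainly in testis.

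CG14906 itself had 20.3, 18.5 and 20.2 normalised CPM (counts scaled to library size) in KO libraries and 18.9, 20.1 and 16.4 normalised CPM in WT libraries. The groups overlapped, and edgeR's quasi-likelihood test gave a log2 fold change of 0.10 and a Benjamini-Hochberg adjusted p of 0.435. A gene total does not show whether the gene was edited, so this value does not check the KO label. Expected counts summed to between 11301501 and 14312536 in KO libraries and between 9963557 and 18906951 in WT libraries. Replicate 1 of each group stood apart from the other 2: between libraries of 1 group the mean chi-square per gene was 2.94 for KO replicates 2 and 3 and 1.66 for WT replicates 2 and 3, against 18.5 to 28.6 for pairs with a replicate 1. Nuclear rRNA took 4.11%, 1.83% and 0.171% of counts in KO replicates 1 to 3 and 3.98%, 0.218% and 0.219% in WT replicates 1 to 3. Of 12 plasmatocyte markers 10 were at 2 TPM or more in every library, while NimC1 had 0.27 to 2.22 TPM in KO libraries and 0 to 0.41 TPM in WT libraries, and Sr-CI had 0.46 to 1.39 TPM in KO libraries and 0.41 to 0.83 TPM in WT libraries. The summed levels of the 12 were 2772 to 5317 TPM in KO libraries and 2002 to 4233 TPM in WT libraries. These sums hide large differences of single markers. In the test described below 6 of 11 tested markers rose (27.7% of all tested genes) and 2 fell (26.5%). Glt had 330 to 356 TPM in KO libraries and 6.42 to 7.65 TPM in WT libraries. The marker eater went the other way, with 14.2 to 16.7 TPM in KO libraries and 66.0 to 70.0 TPM in WT libraries. In bulk RNA, fewer cells of a type and less RNA per cell cannot be told apart.

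Of the 80 members, 64 had enough counts to be tested among 8405 genes. RNA of 28 rose in KO libraries (adjusted p under 0.05, here termed called), where 27.7% of all tested genes did, RNA of 7 fell, where 26.5% of all tested genes did, and 29 were not called. The share that rose was thus larger than the background and the share that fell smaller. The groups did not overlap in 40 of the 64 members, with KO higher in 29 and KO lower in 11. Over all tested genes the groups did not overlap in 63.3%, with KO higher in 31.9% and KO lower in 31.4%. Differences were small: the median size of the log2 fold change was 0.23 over tested members and 0.33 over all tested genes. A call with a fold of at least 1.5 was made for 7 members, against 23.1% of tested genes. Among these, ND-B22 and the low L-named copies COX7AL and COX4L reached 2-fold. The median log2 fold change of the members was 0.10, against 0.01 over all tested genes.

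The median and the small number on the lower side rested on WT replicate 1. Relative to the WT mean, the median member stood at 0.08, 0.13 and 0.08 (log2 of normalised CPM) in KO replicates 1 to 3 and at -0.09, 0.04 and 0.05 in WT replicates 1 to 3. Without WT replicate 1, 25 members were called higher (27.0% of genes tested that way) and 14 lower (27.2%), and the median log2 fold change was 0.03. The 25 include COX6AL, which was too low for the main test. It passed the filter in that fit only through KO libraries, so it could only come out higher. Leaving out both number-1 libraries gave 29 higher and 16 lower, where 34.8% of genes were called in each direction, and a median of 0.04. The members added to the lower side when both were left out included SdhB, COX4, COX7C, ATPsynF and ND-19.

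**Figure D1:**
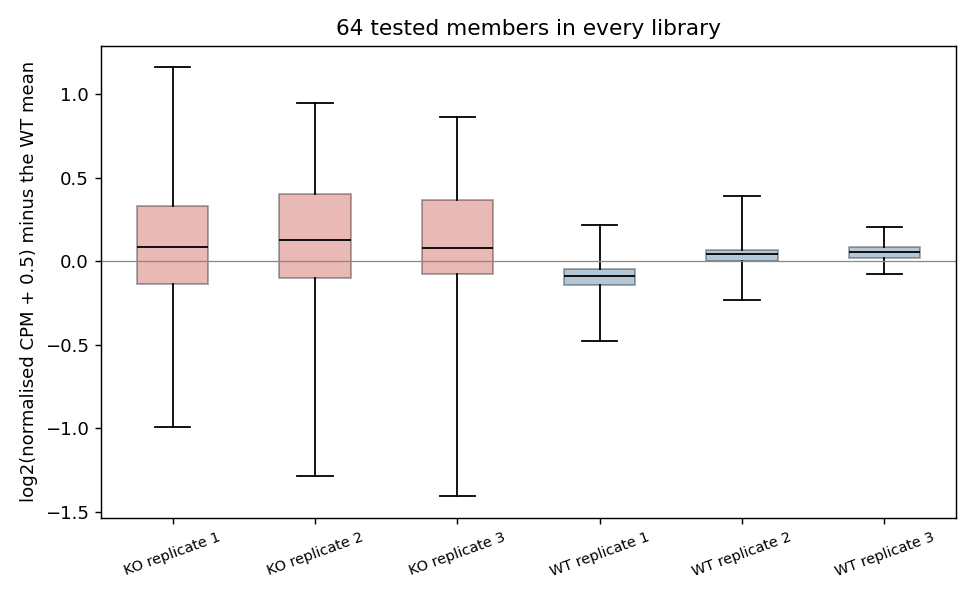
Box plots of the 64 tested members in each library, as log2(normalised CPM + 0.5) minus the mean of the 3 WT libraries; the line is the median, the box the quartiles and the whiskers the lowest and highest member. The KO medians lie at 0.08 to 0.13, and the WT replicate 1 median at -0.09 is the lowest of the 6 libraries.

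Levels are compared between genes in TPM, which accounts for transcript length. Apart from the L-named copies, 61 of 62 subunits were found at 67.8 to 2063 TPM in every library, and the lowest of them by mean stood at percentile 78.0 of all tested genes. The exception was ND-B8, described below. Together the members made up 1.92%, 1.98% and 2.04% of the TPM of KO libraries and 1.69%, 1.88% and 1.89% of the TPM of WT libraries. ATPsynC, the subunit of the rotating c ring and the member of highest level, had 2063, 2003 and 2027 TPM in KO libraries and 1375, 1516 and 1565 TPM in WT libraries.

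Summed by complex, complex V had 6662, 6856 and 7013 TPM in KO libraries and 5413, 6126 and 6185 TPM in WT libraries, a ratio of 1.16 with no overlap. Much of this difference came from ATPsynC, with 2063, 2003 and 2027 TPM in KO libraries and 1375, 1516 and 1565 TPM in WT libraries. With ATPsynC taken out of the sums, the groups of complex V overlap. Complex III had 2157, 2089 and 2127 TPM in KO libraries and 1860, 1852 and 1906 TPM in WT libraries, a ratio of 1.13 with no overlap. For complexes I, II and IV the groups overlapped, with ratios of KO to WT of 1.06, 1.08 and 1.004. No test was run on these sums, whose members share libraries and whose denominator holds all other RNA.

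**Figure D2:**
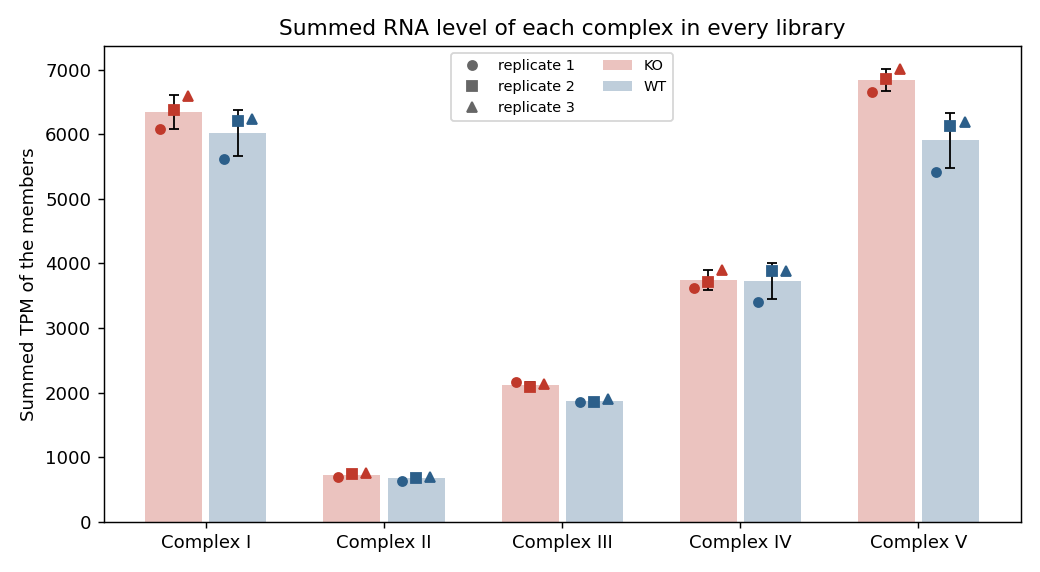
Summed TPM of the members of each complex, with bars for the mean of 3 libraries, error bars for the SD and points for replicates 1 to 3; KO stands left of WT in each pair. The KO points lie above all WT points for complexes III and V, and the point of WT replicate 1 is the lowest WT value in complexes I, II, IV and V.

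Complex I, the NADH dehydrogenase, gave 33 tested members of 40. Of these 13 rose (27.7% of all tested genes), 5 fell (26.5%) and 15 were not called. Among its 7 core subunits, which carry the flavin and the iron-sulfur clusters, 3 rose (27.7% of all tested genes) and 4 were not called. ND-30, a core subunit of the arm that reduces quinone, had 179.5, 204 and 213 TPM in KO libraries and 140.0, 138 and 141 TPM in WT libraries. Every KO library was above every WT library, with a log2 fold change of 0.53 ± 0.0602 (SE) and an adjusted p of 0.000352 in edgeR's test. The iron-sulfur subunits ND-20 and ND-23 also rose, by smaller log2 fold changes of 0.13 and 0.24 at adjusted p of 0.0441 and 0.048 (edgeR). Calls for both were lost in 11 of 17 alternative fits. The flavin-bearing ND-51, the iron-sulfur subunits ND-75 and ND-24 and the quinone-binding ND-49 were not called, with log2 fold changes of -0.06, 0.15, 0.09 and -0.05.

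The 26 tested accessory subunits of complex I divided into 10 that rose (27.7% of all tested genes), 5 that fell (26.5%) and 11 not called. Their median log2 fold change was -0.0018. ND-MLRQ, the homologue of mammalian NDUFA4, was placed in complex I by its symbol alone. The gene had 587, 576 and 587.5 TPM in KO libraries and 302, 337 and 342 TPM in WT libraries. It had the highest KO level of the members with an ND- symbol and showed no overlap between groups, with a log2 fold change of 0.85 ± 0.0602 (SE) and an adjusted p of 5.41e-05 in edgeR's test. ND-AGGG, a small subunit of the membrane arm, had 305.5, 342 and 319 TPM in KO libraries and 173, 202 and 205 TPM in WT libraries. The groups were again apart, with a log2 fold change of 0.78 ± 0.0795 (SE) and an adjusted p of 0.000233 (edgeR). Both genes lie in the part of arm 3L near the centromere, ND-MLRQ at 3L:23339326-23345936 and ND-AGGG at 3L:24976254-24977118 in dm6 coordinates.

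Among other accessory subunits, ND-B14.5B had 213, 201 and 220.4 TPM in KO libraries and 139, 150.3 and 156 TPM in WT libraries. KO libraries were the higher ones throughout, with a log2 fold change of 0.54 ± 0.0702 (SE) and an adjusted p of 0.000688 (edgeR). ND-42, a relative of nucleoside kinases, had 174, 187 and 193 TPM in KO libraries and 148, 157 and 149.8 TPM in WT libraries, again without overlap, at a log2 fold change of 0.31 ± 0.0483 (SE) and an adjusted p of 0.0016 (edgeR). ND-ACP, the mitochondrial acyl carrier protein, had 482.5, 469 and 496 TPM in KO libraries and 372, 410.3 and 396 TPM in WT libraries. It too was higher in all KO libraries, at a log2 fold change of 0.30 ± 0.0518 (SE) and an adjusted p of 0.00251 (edgeR). ND-B17.2, ND-PDSW, ND-13A, ND-B16.6 (the homologue of mammalian GRIM-19) and ND-SGDH rose by log2 fold changes of 0.27 to 0.46.

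In the other direction, ND-B22, a protein of the LYR family that binds the acyl carrier protein, had 153, 159 and 152 TPM in KO libraries and 303, 344 and 315 TPM in WT libraries. This was the lowest adjusted p of all members, with a log2 fold change of -1.02 ± 0.0635 (SE) and an adjusted p of 3.54e-05 in edgeR's test, and the fold of KO over WT was 0.492. The gene is at 2L:13370103-13371110, and 227 of its 871 exon bases are shared with CG31855 on the opposite strand. ND-B14.5A had 97.3, 102 and 104 TPM in KO libraries and 142.5, 172 and 177.5 TPM in WT libraries. It fell with a log2 fold change of -0.68 ± 0.0909 (SE) and an adjusted p of 0.000757 (edgeR), and the groups were far apart. With the median of its chromosome segment as an offset, as described below, this was -0.09 (adjusted p of 0.442, edgeR), and the call was lost.

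ND-B17 had 131, 137 and 139.6 TPM in KO libraries and 172, 183 and 188 TPM in WT libraries, with a log2 fold change of -0.38 ± 0.0534 (SE) and an adjusted p of 0.000961 (edgeR). ND-15 had 183.5, 183 and 214.5 TPM in KO libraries and 231, 235 and 256 TPM in WT libraries, with a log2 fold change of -0.28 ± 0.072 (SE) and an adjusted p of 0.0143 (edgeR). ND-13B had 97.9, 97.0 and 114 TPM in KO libraries and 114, 129.6 and 125 TPM in WT libraries, with a log2 fold change of -0.23 ± 0.0811 (SE) and an adjusted p of 0.0437 (edgeR). ND-B17 and ND-15 were lower in every KO library, while ND-13B overlapped in TPM through KO replicate 3 and WT replicate 1. WT replicate 1 was the lowest WT library for each of these 3 accessory subunits. The call for ND-13B was lost in 9 of 17 alternative fits.

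Complex II, succinate dehydrogenase, also serves the citric acid cycle. Its catalytic head was not called and both membrane anchors rose. SdhD, one anchor, had 127, 137 and 133 TPM in KO libraries and 97.0, 93.5 and 100.2 TPM in WT libraries, with a log2 fold change of 0.47 ± 0.0581 (SE) and an adjusted p of 0.000548 (edgeR). SdhC, the other, had 215, 250.0 and 262 TPM in KO libraries and 189, 193 and 195 TPM in WT libraries, with a log2 fold change of 0.35 ± 0.0665 (SE) and an adjusted p of 0.00361 (edgeR). KO libraries were higher for both anchors without overlap. SdhB, the iron-sulfur protein and the subunit of highest mean level over the 6 libraries, had 236, 227 and 233 TPM in KO libraries and 234, 269 and 272 TPM in WT libraries, with a log2 fold change of -0.13 ± 0.0674 (SE) and an adjusted p of 0.136 (edgeR). The groups overlapped there through WT replicate 1. SdhA, the flavoprotein that oxidises succinate, had 115, 122 and 119 TPM in KO libraries and 117, 127 and 129.7 TPM in WT libraries, with a log2 fold change of -0.05 ± 0.0543 (SE) and an adjusted p of 0.44 (edgeR). The head genes lie on arm 2R and the anchor genes on arm 3R.

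In complex III, cytochrome bc1, 3 of 6 tested members rose (27.7% of all tested genes) and 3 were not called. UQCR-C2, a core protein on the matrix side, had 203, 233.5 and 225 TPM in KO libraries and 147, 153 and 160.2 TPM in WT libraries, with a log2 fold change of 0.55 ± 0.0604 (SE) and an adjusted p of 0.000311 (edgeR). Its partner UQCR-C1 had 378.5, 335 and 338 TPM in KO libraries and 299, 276 and 273 TPM in WT libraries, with a log2 fold change of 0.33 ± 0.0803 (SE) and an adjusted p of 0.0104 (edgeR). UQCR-11, the hinge protein, had 464, 403 and 437 TPM in KO libraries and 319, 268 and 297 TPM in WT libraries, with a log2 fold change of 0.60 ± 0.0887 (SE) and an adjusted p of 0.00121 (edgeR). None of these 3 overlapped between groups. UQCR-Q, the member of highest mean level here, had 476.5, 481 and 446 TPM in KO libraries and 404, 404 and 459 TPM in WT libraries, was not called (adjusted p of 0.0635, edgeR) and overlapped through WT replicate 3. UQCR-6.4 and UQCR-14 were not called, and all exon bases of UQCR-14 lie opposite CG32576, so its reads cannot be told apart where strand was not used.

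In complex IV, cytochrome c oxidase, 1 of the 7 main subunits was called higher (27.7% of all tested genes) and 0 lower (26.5%). COX5A rose and had 624, 678.5 and 712.5 TPM in KO libraries and 416, 493 and 508 TPM in WT libraries. The groups did not overlap, with a log2 fold change of 0.53 ± 0.0795 (SE) and an adjusted p of 0.0013 (edgeR). With the segment offset described below it came to 0.10 (adjusted p of 0.361, edgeR) and lost its call. COX4, the subunit of highest level, had 751, 759 and 787 TPM in KO libraries and 793, 885 and 913 TPM in WT libraries. KO was lower in every library, but the gene was not called at a log2 fold change of -0.15 ± 0.0608 (SE) and an adjusted p of 0.0715 (edgeR). COX5B, COX6B, COX7A, COX7C and COX8 had log2 fold changes between -0.14 and 0.07, all uncalled. COX4 and COX7C were called lower without WT replicate 1.

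Complex V, the ATP synthase, had 8 of 12 tested members that rose, where 27.7% of all tested genes did, 1 that fell and 3 not called. Without WT replicate 1, 6 of the 12 were called higher (27.0% of genes tested that way), and with the segment offset 4 were (23.0%). The c-ring gene ATPsynC, whose levels are given above, rose with a log2 fold change of 0.55 ± 0.0686 (SE) and an adjusted p of 0.000567 (edgeR), and all KO libraries were above all WT libraries. ATPsynO, the peripheral stalk protein that confers sensitivity to oligomycin, had 364, 408 and 415 TPM in KO libraries and 241, 289.6 and 302 TPM in WT libraries. It rose with a log2 fold change of 0.53 ± 0.0864 (SE) and an adjusted p of 0.00181 (edgeR). ATPsynD, another subunit of the same stalk, had 273, 302 and 302 TPM in KO libraries and 408.5, 472 and 430.1 TPM in WT libraries. It fell with a log2 fold change of -0.56 ± 0.0624 (SE) and an adjusted p of 0.000335 (edgeR), so the stalk held members that moved in opposite directions.

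A further stalk subunit, ATPsynCF6, had 391.5, 362 and 370.3 TPM in KO libraries and 284, 316 and 315 TPM in WT libraries. It rose with a log2 fold change of 0.32 ± 0.0667 (SE) and an adjusted p of 0.00547 (edgeR), while ATPsynB of the stalk was not called. In the membrane part, ATPsynE had 656, 656 and 665 TPM in KO libraries and 511, 566 and 543 TPM in WT libraries, with a log2 fold change of 0.30 ± 0.0513 (SE) and an adjusted p of 0.00222 (edgeR). ATPsynG, also of the membrane part, had 609, 709 and 737 TPM in KO libraries and 489.7, 571 and 582 TPM in WT libraries, with a log2 fold change of 0.35 ± 0.0836 (SE) and an adjusted p of 0.0104 (edgeR). Both were without overlap, and ATPsynF was not called at -0.12.

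In the catalytic F1 part, ATPsynbeta had 754, 731.5 and 786 TPM in KO libraries and 626, 690.5 and 693.5 TPM in WT libraries, with a log2 fold change of 0.20 ± 0.0618 (SE) and an adjusted p of 0.0286 (edgeR). The central stalk subunit ATPsyngamma rose by 0.21 (log2, adjusted p of 0.0329, edgeR), and ATPsyndelta was not called. Calls for ATPsynbeta and ATPsyngamma were each lost in 9 of 17 alternative fits. The catalytic partner of ATPsynbeta, the alpha subunit gene blw, falls outside the symbol rule. It had 1039, 1079 and 1061 TPM in KO libraries and 709, 777 and 758 TPM in WT libraries, with a log2 fold change of 0.53 ± 0.0608 (SE) and an adjusted p of 0.000385 (edgeR).

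**Figure D3:**
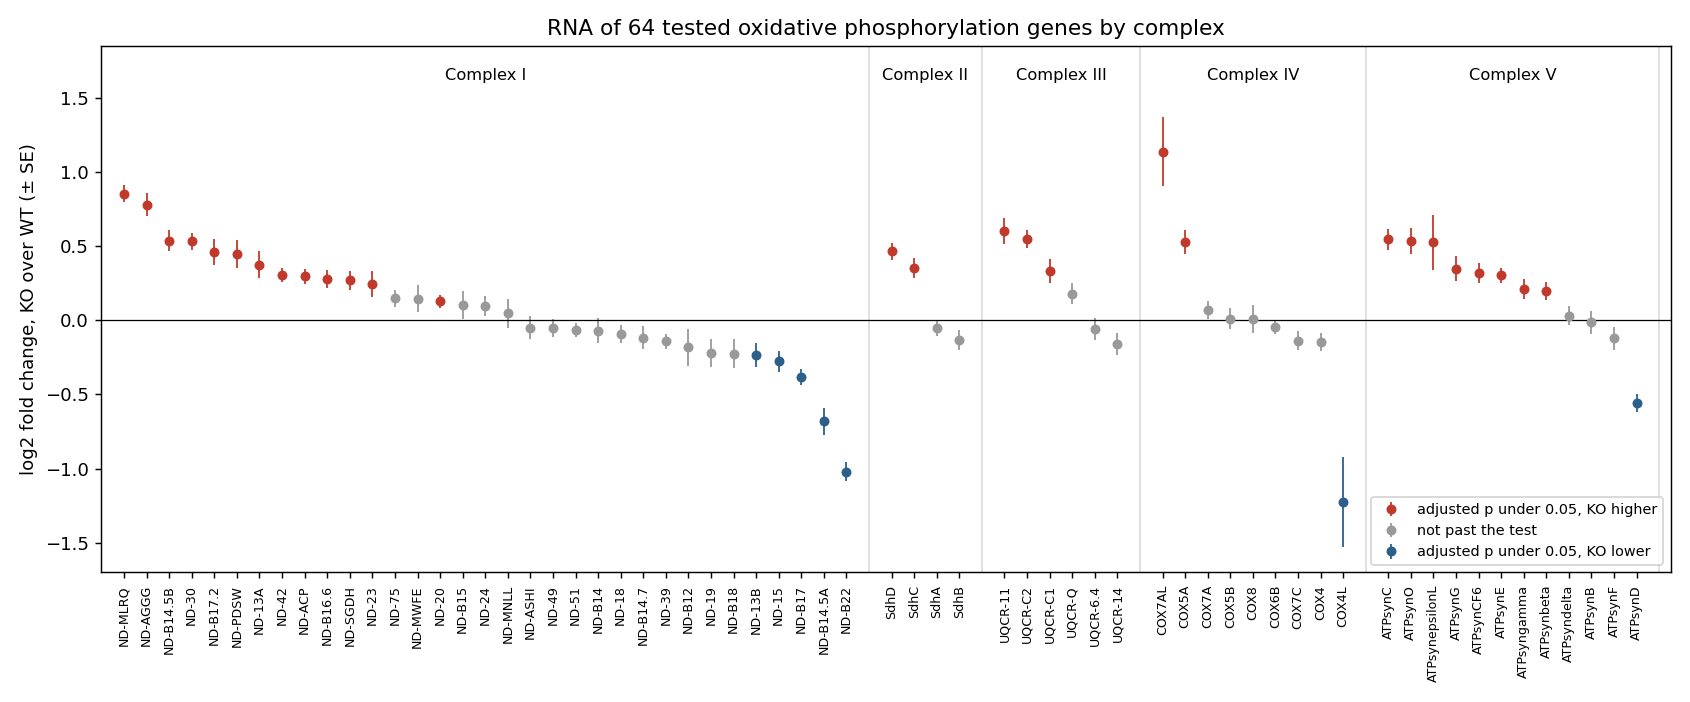
Fitted log2 fold change of KO over WT for the 64 tested members, ordered within each complex, with bars for the standard error and colour for the direction of called genes. In complexes II and III every called member is higher in KO, ND-B22 (-1.02) is the lowest in complex I, and COX7AL (1.14) and COX4L (-1.23) are the highest and lowest of all.

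Chromosome position went with the direction of change. On arm 3R 13 of 15 tested members were called higher, where 40.8% of all tested genes of the arm were, and 1 was called lower (12.9% of all). On 3L 7 of 12 members were called higher (29.0% of all genes of the arm) and 1 lower (21.5%). On 2L 5 of 11 members were higher (27.2%) and 3 lower (30.6%). On 2R, where 20.1% of all genes were called higher and 32.6% lower, COX4L was lower and the other 11 tested members were not called. On X 2 of 12 members were higher (17.2%) and 1 lower (38.6%). Of the 2 members on chromosome 4 ATPsynbeta was higher and ND-49 was not called. There 10.3% of all tested genes were called higher and 47.1% lower, so ATPsynbeta went against most called genes of its chromosome.

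The same held at a finer scale. For 60 members in a 1 Mb segment of at least 20 tested genes, the log2 fold change was set against the segment's median log2 fold change, the member's own value included. Pearson's r was 0.68 and Spearman's rho 0.78 across these genes, which are not independent replicates. Across all 8199 tested genes with such a segment Pearson's r was 0.25. The set of all genes was not matched to the members in RNA level, so the values of r are not directly comparable. Of 24 called higher members with a segment, 20 lay in segments of median above 0, and of 7 called lower members 6 lay in segments of median below 0. With each gene left out of its own segment's median, Pearson's r was 0.67 and Spearman's rho 0.765 over the members and Pearson's r was 0.23 over all genes, and both counts of called members were as before. ND-B17 had a log2 fold change of -0.38, and the median of the other genes of its segment was -0.39. ND-PDSW had 0.45, and its other segment genes had a median of 0.48.

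With the segment medians taken as an offset in edgeR's fit, 15 members were called higher (23.0% of tested genes) and 3 lower (21.0%). Of these, 13 higher and 3 lower were called in both fits, and 15 called members lost their call in this fit alone: ND-B14.5A, ND-B17, ND-B17.2, ND-B14.5B, ND-42, ND-ACP, ND-13A, ND-PDSW, ND-SGDH, SdhC, UQCR-C1, COX5A, ATPsynCF6, ATPsynE and ATPsynG. ATPsynC kept a log2 difference from its segment of 0.45 (adjusted p of 0.00182), UQCR-C2 0.35 (0.003), ND-30 0.31 (0.00517), SdhD 0.19 (0.0309) and ATPsynO 0.26 (0.0462). On the lower side ND-B22 kept -0.55 (0.000558) and ATPsynD, which fell in a segment of median 0.26, had -0.82 (0.000101). SdhC came to -0.08 (0.368) and lost its call. SdhA and ND-49, uncalled in the plain fit, were called higher in this one, at 0.19 (0.027) and 0.39 (0.00206). ND-MLRQ, ND-AGGG, UQCR-11 and ATPsynbeta had no segment of 20 tested genes and took no offset. For the other members the offset was a fixed value from the same libraries, with the gene's own value included. The adjusted p-values of this fit therefore leave out the error of the segment medians.

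**Figure D4:**
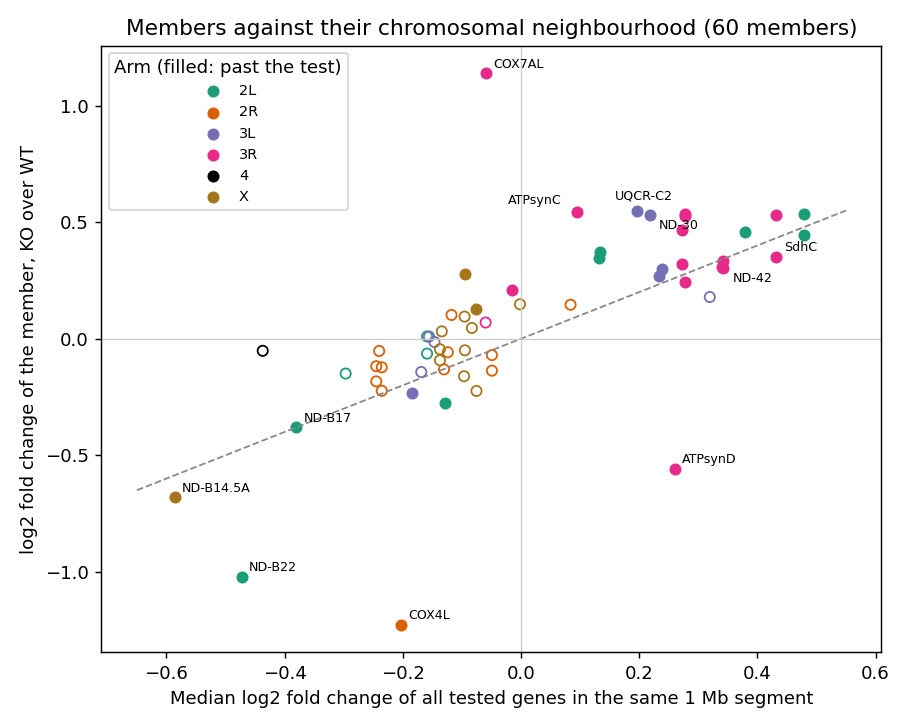
Log2 fold change of KO over WT for 60 members (vertical axis) against the median log2 fold change of all tested genes in the member's 1 Mb segment (horizontal axis), coloured by arm, filled where called; the dashed line marks equal values. Members follow the line (Spearman's rho 0.78), while COX7AL and ATPsynC lie above it and ATPsynD, COX4L and ND-B22 below it.

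The number of introns bears on splicing, and the 7 members that fell all had 1 or 2 introns. Whether intron number has a part in the direction of change was not tested. Tested members had 1 to 6 introns. With 1 intron 5 of 14 rose (28.1% of all tested genes with 1 intron) and 3 fell (21.9%). With 2 introns 12 of 27 rose (29.6%) and 4 fell (23.1%). With 3 introns 7 of 13 rose (26.4%), and with 4 or more 4 of 10 rose (27.9%). The other members with 3 or more introns were not called, where 24.5% and 32.3% of all genes fell. Across the 64 members Spearman's rho between intron number and log2 fold change was 0.16. Transcript length weighted by isoform abundance could be tested with limma for 50 members with at least 2 transcripts. None was called at an adjusted p under 0.05, where 2.72% of all genes tested for length were, and 9 had an unadjusted p under 0.05. The largest log2 length difference was 0.07, and the lowest adjusted p was 0.0564 for ATPsynE, whose weighted length was 548.0, 547.9 and 547.5 bases in KO libraries and 550.5, 550.5 and 549.8 bases in WT libraries.

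The 18 L-named copies formed a low tier. Over the 6 libraries 5 of them had no count (ND-20L, ND-B14.5AL, SdhAL, COX5BL and ATPsynCF6L), 12, these included, had fewer than 10 counts and 6 had at least 10. No copy of complexes I, II or III was tested. None of the 62 other members lacked introns in the annotation, against 6 of the 18 copies. A library with no count still allows up to 3 counts, which corresponds to 0.210, 0.231 and 0.266 CPM in KO replicates 1 to 3 and 0.180, 0.301 and 0.159 CPM in WT replicates 1 to 3, for counting error alone.

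Of the 3 copies that were tested, 2 rose (27.7% of all tested genes) and 1 fell (26.5%). COX7AL had 70, 55 and 46 counts in KO libraries and 39, 16 and 38 counts in WT libraries, which gives 5.0, 4.25 and 3.99 normalised CPM in KO libraries and 2.37, 1.59 and 1.99 normalised CPM in WT libraries. The groups did not overlap after normalisation, with a log2 fold change of 1.14 ± 0.23 (SE) and an adjusted p of 0.00535 (edgeR). Its neighbour and counterpart COX7A had 439, 417 and 447 TPM in KO libraries and 394, 446 and 421.5 TPM in WT libraries and overlapped (adjusted p of 0.348, edgeR). COX7AL itself had 14.4, 12.5 and 12.2 TPM in KO libraries and 7.05, 4.82 and 6.0 TPM in WT libraries, so the copy rose beside a main gene that was not called.

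COX4L moved the other way. It had 71, 42 and 34 counts in KO libraries and 100, 115 and 176 counts in WT libraries, or 5.07, 3.25 and 2.95 normalised CPM in KO libraries and 6.07, 11.5 and 9.22 normalised CPM in WT libraries. KO replicate 1 and WT replicate 1 lay closest to each other, but the groups did not overlap, with a log2 fold change of -1.23 ± 0.30 (SE) and an adjusted p of 0.0114 (edgeR). Its level was 12.6, 8.21 and 7.71 TPM in KO libraries and 15.5, 29.7 and 23.9 TPM in WT libraries, far under COX4. ATPsynepsilonL had 94, 106 and 93 counts in KO libraries and 71, 55 and 117 counts in WT libraries, or 6.72, 8.20 and 8.07 normalised CPM in KO libraries and 4.31, 5.48 and 6.13 normalised CPM in WT libraries. It rose with a log2 fold change of 0.53 ± 0.18 (SE) and an adjusted p of 0.0445 (edgeR), a call lost in 9 of 17 alternative fits.

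COX6AL, an intronless copy of the complex IV gene levy, was too low for the test. It had 36, 12 and 8 counts in KO libraries and 1, 0 and 0 counts in WT libraries. Scaled by library totals this is a ratio of KO to WT of 66.04, with an exact 95% interval of 11.4 to 2654 that covers counting error alone. KO replicate 1 was the highest, and each KO library was above each WT library. Without KO replicate 1 the ratio was 37.5 (5.99 to 1553), and without WT replicate 3 it was 38.6 (6.65 to 1553). Without WT replicate 1, which held the 1 WT count, KO was at least 13.95-fold higher, with the WT group set to a floor of 3 counts in all. Its counterpart levy had 549.5, 556 and 547 TPM in KO libraries and 471, 549 and 569.6 TPM in WT libraries and was not called. ATPsynbetaL had 5, 2 and 1 counts in KO libraries and 3, 0 and 3 counts in WT libraries, and ND-51L1 had 3, 1 and 2 counts in KO libraries and 3, 0 and 1 counts in WT libraries, both with overlap between the groups. Of 33 testis germ cell markers found, 12 were at 0 in all libraries and 21 were under 1 TPM in all. Their summed level was 60.2 to 68.1 TPM in KO libraries and 55.3 to 61.8 TPM in WT libraries, and the part of such cells in the copies' levels was not tested.

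**Figure D5:**
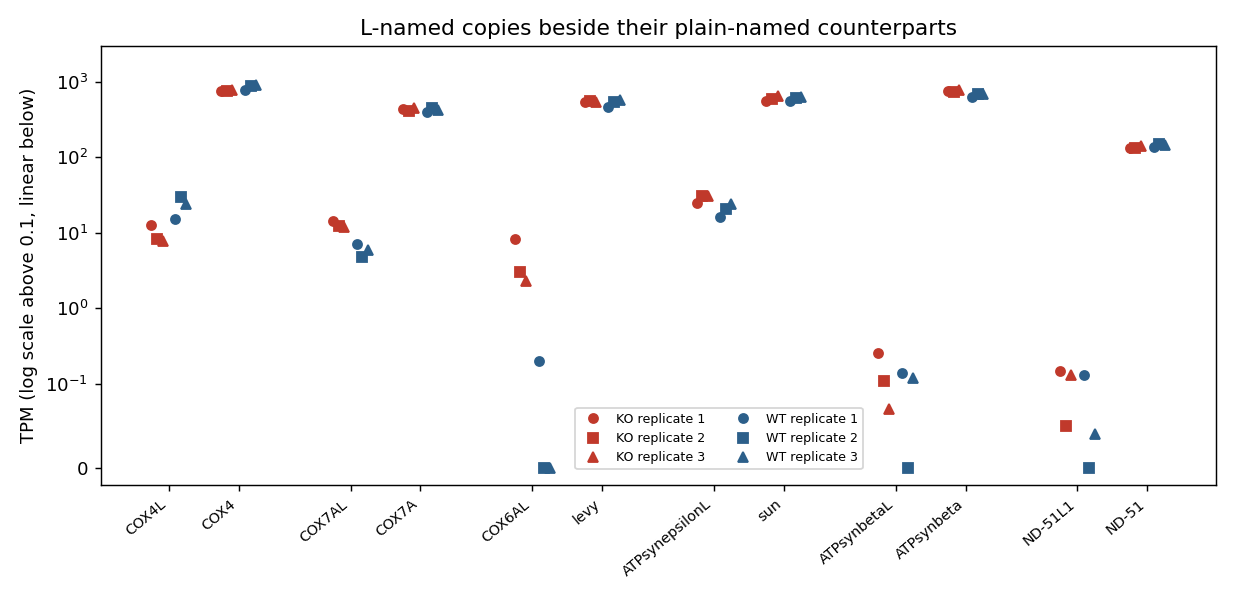
TPM in every library of the 6 L-named copies with at least 10 counts, each beside its main gene; KO points stand left of WT points, and the axis is logarithmic above 0.1 TPM and linear below. The copies lie far below their main genes, COX6AL is near 0 in WT libraries, and COX7AL and COX4L differ between the groups in opposite directions while COX7A and COX4 differ little.

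ND-B8, the homologue of mammalian NDUFA2, was the 1 subunit with a plain name that was hardly detected. It had 0, 0 and 1 counts in KO libraries and 0, 1 and 0 counts in WT libraries. Whether this reflects little RNA or reads lost in the authors' annotation or counting was not tested. The gene lies at 2L:4454626-4455207, between expressed genes. Gs1l, which overlaps its end on the opposite strand by 71 exon bases, had 504, 524 and 473 counts in KO libraries and 445, 292 and 515 counts in WT libraries. CG15440 on its other side had 374, 389 and 316 counts in KO libraries and 416, 251 and 526 counts in WT libraries. ND-B8 has no L-named copy among the members.

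Other genes of respiration were read in lists. Of 13 subunits encoded in the mitochondrial genome 10 rose and 3 were not called, with a median log2 fold change of 0.84. Their summed level was 37380, 22690 and 18430 TPM in KO libraries and 17260, 14240 and 14530 TPM in WT libraries, highest in replicate 1 of each group. mt:ND5, a core membrane subunit of complex I, had 864, 687 and 565 TPM in KO libraries and 388.5, 289 and 287 TPM in WT libraries, with a log2 fold change of 1.16 ± 0.19 (SE) and an adjusted p of 0.00208 (edgeR). The KO libraries spread widely, with replicate 1 the highest, and remained above all WT libraries.

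Of 9 tested subunits whose names fall outside the symbol rule, 4 rose and 5 were not called. Those that rose were blw, the cytochrome c1 gene Cyt-c1, its copy Cyt-c1L and the Rieske iron-sulfur protein RFeSP, at 0.54 (log2, adjusted p of 0.000296, edgeR). Among assembly and cofactor genes 12 of 17 were not called and 5 rose, including the chaperonin gene Hsp60A at 0.44, the copper protein gene Scox at 0.55 and the cytochrome c heme lyase gene Cchl at 0.50. With the segment offset Hsp60A kept its call at 0.61 (adjusted p of 0.000268, edgeR). Scox, at 0.09 (0.378), and Cchl, at 0.16 (0.117), lost theirs. Of carriers and electron entry genes 7 of 11 rose and 2 fell. The outer membrane channel gene porin had 855, 908 and 974.5 TPM in KO libraries and 629, 631 and 647 TPM in WT libraries, with a log2 fold change of 0.56 ± 0.055 (SE) and an adjusted p of 0.000203 (edgeR), and AIF, the apoptosis-inducing factor gene, rose by 0.83 (log2). Gpo1, a glycerol-3-phosphate dehydrogenase that feeds electrons to quinone, fell with a log2 fold change of -0.96 ± 0.0997 (SE) and an adjusted p of 0.000248 (edgeR).

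In the citric acid cycle 9 of 18 tested genes rose and 2 fell. Mdh2, mitochondrial malate dehydrogenase, had 301, 306 and 319 TPM in KO libraries and 170.4, 192 and 195 TPM in WT libraries, with a log2 fold change of 0.76 ± 0.0589 (SE) and an adjusted p of 7.7e-05 (edgeR). Fumarase Fum1 and muc, a pyruvate dehydrogenase component, fell, with log2 fold changes of -0.25 and -0.29. Both lost their call with the segment offset, at -0.15 (adjusted p of 0.0534, edgeR) and -0.09 (0.239). Of 17 regulators of mitochondrial biogenesis 7 rose and 5 fell. ewg, the Drosophila homologue of nuclear respiratory factor NRF-1, had 9.89, 7.94 and 9.57 TPM in KO libraries and 28.1, 24.4 and 25.8 TPM in WT libraries, with a log2 fold change of -1.49 ± 0.10 (SE) and an adjusted p of 4.64e-05 (edgeR). srl, the homologue of the coactivator PGC-1, rose by 0.37 and TFAM, the packaging factor of mitochondrial DNA, by 0.41 (log2). foxo rose by 0.95, while gig (-0.40), tam (-0.39), ERR (-0.33) and bsf (-0.16) fell beside ewg. With the segment offset gig was still called lower, at -0.23, while tam (0.08), ERR (-0.21) and bsf (0.145) were not. These counts stand beside the 27.7% and 26.5% of all tested genes called higher and lower.

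Positions and overlaps qualify a few members. Of the 80, 34 share exon bases with another annotated gene, 27 of them only on the opposite strand, and 3 share over 50% of their bases. All exon bases of ND-MNLL are shared with CG45089 on the same strand, and ND-MNLL was not called. Expected counts were whole within 0.005 for all 18 copies and for 61 of the 80 members, and the counts of the others were partly shared out between genes.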

How the data were processed

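Poly(A) RNA of 3 KO and 3 WT libraries of Kc cells was measured. RSEM 1.3.0, STAR 2.7.0f, cutadapt and CASAVA 1.7 are listed, with the dm6 build, in the submitters' processing notes. The sources used here give neither the annotation release nor tool options or strand use. Per the file headers, the deposited tables hold an RSEM expected count, TPM, FPKM (not used) and isoform-weighted length per gene.

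Expected counts were rounded and tested with edgeR 4.0.16 in R 4.3.3 (TMM scaling, quasi-likelihood test, filterByExpr at 10 counts), and p-values were adjusted by Benjamini-Hochberg over all 8405 tested genes. Normalised CPM used TMM-scaled totals, with factors of 0.979 to 1.02. The standard error is the log2 fold change divided by the square root of F. For isoform-weighted length, limma 3.58.1 was run on log2 values of genes of mean TPM of at least 5. Alternatives were DESeq2 1.42.0, other scalings and filters, limma on log2(TPM + 1) or log2(TPM + 0.1), libraries left out, WT replicates 2 and 3 summed, and the median log2 fold change of the 1 Mb segment as an offset; segment medians without the gene itself and the COX6AL ratio with libraries left out were added after seeing the data. Coordinates, introns and overlaps came from the Ensembl annotation of dm6, which held all 80 member identifiers.

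Members, gene lists and tests were chosen with earlier results of these data known. Library values are given for up to 6 called members per complex and direction with the lowest adjusted p, the member of highest TPM in each complex, L-named copies with at least 10 counts, and CG14906. Up to 3 called genes per pathway list were named by adjusted p. Other genes named (SdhA, ND-49, ND-B8 and its neighbours, counterparts of copies, Fum1, muc, srl, TFAM, tam, ERR, bsf, Cyt-c1, Gpo1 and single cell type markers) were chosen after their values were seen. Libraries of 1 group were compared for copies: WT replicates 2 and 3 were closest but differed by more than sampling noise, with a mean chi-square of 1.66 per gene. Replicate numbers are shared between groups but unpaired in the labels. Over all tested genes, deviations from group means correlated at 0.52, 0.15 and 0.40 between same-numbered libraries, each over 0.1, the limit used for taking numbers as pairs. KO replicate 3 with WT replicate 2 gave 0.38 and KO replicate 2 with WT replicate 3 gave 0.16, so the data match only the number-1 libraries.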

Additional observations from a re-analysis of the deposited data

How the results depend on the processing

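The number of members called higher was 24 to 30 and of those called lower 6 to 7 under other scalings, filters, tools and the summed WT libraries, against 28 and 7. Leaving out 1 library gave 24 to 27 higher and 5 to 14 lower, with 14 reached without WT replicate 1, and a median log2 fold change of 0.0253 to 0.137. COX6AL, not tested in the main fit and so not among the 28, adds 1 to several of these counts of higher members. It was called higher with DESeq2, without a count filter, in both limma fits and with the WT libraries summed. The same held without KO replicate 2 or 3, or without any 1 WT replicate. Leaving out both number-1 libraries gave 16 lower and a median of 0.0352. With the replicate number as a block, which takes the numbers as pairs, 27 were called higher and 9 lower, 34 of the 35 calls were kept, ND-20 lost its call, and ND-39 and ND-B18 were added on the lower side.

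The segment offset gave 15 higher and 3 lower and turned the sign of ND-23 (-0.0327), ND-42 (-0.0341), ND-PDSW (-0.0322), SdhC (-0.0800), UQCR-C1 (-0.00792) and ATPsynE (-0.0396). It also turned 15 of 29 uncalled members, among them ND-49 (0.39), SdhA (0.19), COX4 (0.15) and UQCR-Q (-0.14). Of the uncalled members 5 turned with upper-quartile factors, among them ND-49 (0.00341), SdhA (0.00208) and ND-ASHI (0.00464), and 5 without both number-1 libraries, among them COX7A (-0.00313), ND-B15 (-0.0317) and COX8 (-0.0674). Of the 35 called members, 13 were called under all 17 alternative fits: ATPsynC, ATPsynO, COX7AL, ND-30, ND-AGGG, ND-B16.6, ND-MLRQ, SdhD, UQCR-11 and UQCR-C2 higher, and ATPsynD, COX4L and ND-B22 lower. The ratio of summed TPM for complex III was 1.16 without rRNA and mitochondrial genome transcripts, and 1.13 to 1.14 with 1 library left out, and for complex V it was 1.11 to 1.19, lowest without WT replicate 1. The count of members called for length was 0 to 1 with 1 library left out, ND-B18 being called without WT replicate 1, and 0 in the block fit. The causes of these shifts were not tested.

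Counts limit the L-named copies, 12 of which had fewer than 10 counts in all. With 3 libraries a group the median standard error over tested members was 0.07 (log2), the smallest called log2 fold change was 0.13 (ND-20), and an uncalled gene is not shown to be equal in both groups. Strand use is not stated, so members overlapping other genes may hold reads of both.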

Other observations

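The other cell type marker lists were read in the same libraries as the respiratory genes. Of 5 tested ovarian germ cell markers 5 rose, and bam, a differentiation factor of germ cells, had 42.3, 39.1 and 45.0 TPM in KO libraries and 2.7, 2.37 and 2.53 TPM in WT libraries, without overlap. Among the 5, nos and vas had 0.0997 to 0.364 normalised CPM in WT libraries. They passed the count filter only through KO libraries, so they could only come out higher. Of 9 tested testis germ cell markers 1 rose and 3 fell, of 11 tested plasmatocyte markers 6 rose and 2 fell, and of 4 tested neuron markers 2 rose and 2 fell. Among the 3 testis markers that fell, Mst98Ca and Mst98Cb had 0 to 0.387 normalised CPM in KO libraries. They passed the filter only through WT libraries, so they could only come out lower. Muscle markers were under 1 TPM in all libraries for 7 of 10 genes, and the summed level of 5 crystal cell markers was 3.89 to 4.71 TPM in KO libraries and 0.71 to 1.0 TPM in WT libraries, of which klu alone gave 2.48 to 3.28 TPM in KO libraries and 0.20 to 0.23 TPM in WT libraries, while PPO1, PPO2, lz and peb were each under 1 TPM in all. Of 4 tested lamellocyte markers 2 rose. Over all tested genes 27.7% were called higher and 26.5% lower, and these marker lists are small. The part of these differences in the levels of the oxidative phosphorylation genes was not tested.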
